A study of Mus musculus with 2 samples.

Results

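Translation initiation and elongation factors were followed in the hearts of L9 and L19 mice, set against the hearts of non-transgenic (NTG) mice. Members were the probes whose platform gene symbol, old or current, begins with Eef, or with Eif followed by a digit. This gave 64 probes of 23473 gene probes on the array, for 62 genes of 16390 that the platform names. Of these, 59 genes gave a signal above background in both channels of both arrays, out of 17485 genes or unnamed probes that did so. The rule uses names alone and no measured value.

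L9 and L19 are 2 transgenic (TG) lines, each from its own founder, in which the αMHC promoter drives the human primary transcript of miR-143 and miR-145 in cardiomyocytes. The lines were made in B6D2F1 mice and backcrossed to C57BL/6J. Total heart RNA of 3-month old mice, male according to the figure legends, was read in 2 colours on Toray 3D-Gene mouse arrays, with 1 array per line, TG RNA in Cy3 and NTG RNA in Cy5. Both arrays name the NTG RNA by one label, so it was counted as a single control (n = 1). The paper's methods speak of an average over NTG mice in the plural. The dyes were not swapped, and how many mice were behind each RNA was not stated. The levels of miR-143 and miR-145 themselves were not analysed here.

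Translation of an mRNA starts when the cap at its end is bound by eIF4F, made of the cap-binding eIF4E, the scaffold eIF4G and the RNA helicase eIF4A. The small ribosomal subunit arrives with eIF3 and with eIF2, which carries the initiator tRNA and GTP, and scans to the start codon, where eIF1, eIF1A and eIF5 act. In elongation, eEF1A brings each aminoacyl-tRNA to the ribosome and eEF2 moves the ribosome by one codon. In adult heart and skeletal muscle a second eEF1A gene, Eef1a2, is known to take over much of the role that Eef1a1 has in other cells.

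Values below are normalized signals in arbitrary units, that is spot intensities minus the mean of blank spots, with the TG channel scaled so that the median ratio of TG to NTG on each array is 1. Ratios are log2 of TG over NTG, a log2 ratio of 1 being a doubling, and their means and SD are over the 2 lines. The NTG RNA was read on both arrays under one label, and whether both readings used the same aliquot was not stated. The gap between them covers the reading error and any difference between aliquots. After centring, the members' NTG signals differed between the arrays by a median of 0.10 on the log2 scale, against 0.12 for all genes. The differences had an SD of 0.21 over the members and 0.27 over all genes. The largest were 0.77 for Eif2s1, whose NTG signals were 7.08 and 13.1, and 0.59 for Eif1a, with 39.4 and 64.2, and these 2 were the only members whose NTG readings differed by more than 1.5-fold. If both arrays used one NTG RNA, as the label reads, an error in it moves both ratios the same way.

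Only 3 of the 59 measured members, Eef1a1, Eif3e and Eif3j1, were over 1.5-fold higher in both lines, the fold cutoff of the study's methods, a share near the 5.2% of all genes that were. None was lower by that much in both lines, where 3.03% of all genes were. For Eif3j1 this rests on 1 of 3 probes, chosen by a mean signal that includes the TG channel. Past 2-fold in both lines there was 1 member (1.25% of all genes), Eif3j1 by that same probe. In L9 alone 4 members were over 1.5-fold higher (10.6% of all genes) and 3 lower (7.47%). In L19 alone 5 were higher (9.77%) and 1 was lower (7.6%). Most members had a ratio within 1.5-fold of NTG.

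Within that range the members lay more often above NTG than below it. Of the 59, 37 (62.7%) were above NTG in both lines, where 35.5% of all genes were, and 15 (25.4%) were below in both, where 38.4% of all genes were. The remaining 7 had one line on each side (26.1% of all genes). The median of the members' mean log2 ratio was 0.14, with medians of 0.07 in L9 and 0.13 in L19. The same median over all genes was -0.01. The median depended on how the spots were corrected for background, since normexp correction gave 0.40 for the members and 0.02 for all genes. Among genes in the upper 50% of signal, where 50 of the 59 members lie, normexp gave 0.44 for the members and 0.26 for all genes. No p-value is attached to these medians, because genes are not replicates.

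No member passed limma at an adjusted p of 0.05 in either direction (0.0% of all genes in each). The lowest adjusted p among members was 0.086, shared by Eef1a1, Eif3e and Eif3j1, which is also the lowest of any gene on the arrays. At an unadjusted p of 0.05, limma gave 14 members higher (15.7% of all genes) and 5 lower (14.4%). With 2 arrays the test had little power. In simulated data with 200 of 17485 genes changed in each run, it called 0% of genes changed 1.5-fold and 0.4% of those changed 2-fold. Those runs drew the 2 ratios independently, whereas the lines here share 1 NTG RNA by its label. The share of genes changed may also differ from that here, so these percentages are only a rough guide. Letting the variance follow the signal, with robust estimation, gave 13 members higher (10.4% of all genes) and 6 lower (9.56%) at an adjusted p of 0.05. The 13 include Eef1a1, Eif3e and Eif3j1, with adjusted p-values of 0.00071, 0.0011 and 0.00067, and the other 16 of these 19 are named below as called by limma with the trend. Restricting the fit to the upper 50% of signal gave 10 members higher (14.3% of all genes there) and 3 lower (14.7%), while the counts past 1.5-fold in both lines stayed at 3 higher (4.03%) and 0 lower (2.93%). With normexp 13 members were over 1.5-fold higher in both lines (5.51% of all genes) and 0 lower (0.252%), and limma called 40 higher (30.4%) and 1 lower (13.1%). Most members, 50 of 59, lie in the upper 50% of signal, where the normexp median of all genes was 0.26. The shares over all genes are thus not a like background for these normexp counts. Shares within that upper 50% were not computed with normexp.

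Under the blank correction, markers of heart cell types also stood away from NTG on these arrays. All 6 measured cardiomyocyte genes of 7 listed (Myh6, Tnnt2, Tnni3, Myl2, Ryr2 and Pln) were below NTG in both lines, with a median log2 ratio of -0.75 and summed signals of 84686 and 104410 in L9 and L19 hearts against 142050 and 148690 in NTG hearts. Of 12 fibroblast genes, 11 were above NTG in both lines, with a median of 0.68 and summed signals of 13593 and 14814 in L9 and L19 hearts against 7595 and 9430.3 in NTG hearts. The endothelial list had a median of -0.46 over 7 genes, smooth muscle -0.08 over 4 and macrophage -0.17 over 4. The marker ratios also depended on the background correction. With normexp Tnnt2 had a mean of 0.12 and Pln of -0.04, while Myh6, Tnni3, Myl2 and Ryr2 lay from -0.32 to -0.24. The fibroblast genes all had means above NTG with normexp, from 0.50 to 1.78. Tie1, which held the endothelial median of -0.46, was at -0.02 with normexp. Whole-heart RNA cannot tell fewer cells of a type from less RNA per cell. The part of the marker shifts in the ratios of Eef1a1, Eif3e, Eif4g1, Eif4g2 or any other member was not tested. As a check of the labelled tissue, the cardiomyocyte markers Myh6, Tnnt2, Tnni3 and Myl2 each had a signal of at least 9633 in every channel. Pln had at least 8505, while Ryr2 had only 123 to 215.

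**Figure D1:**
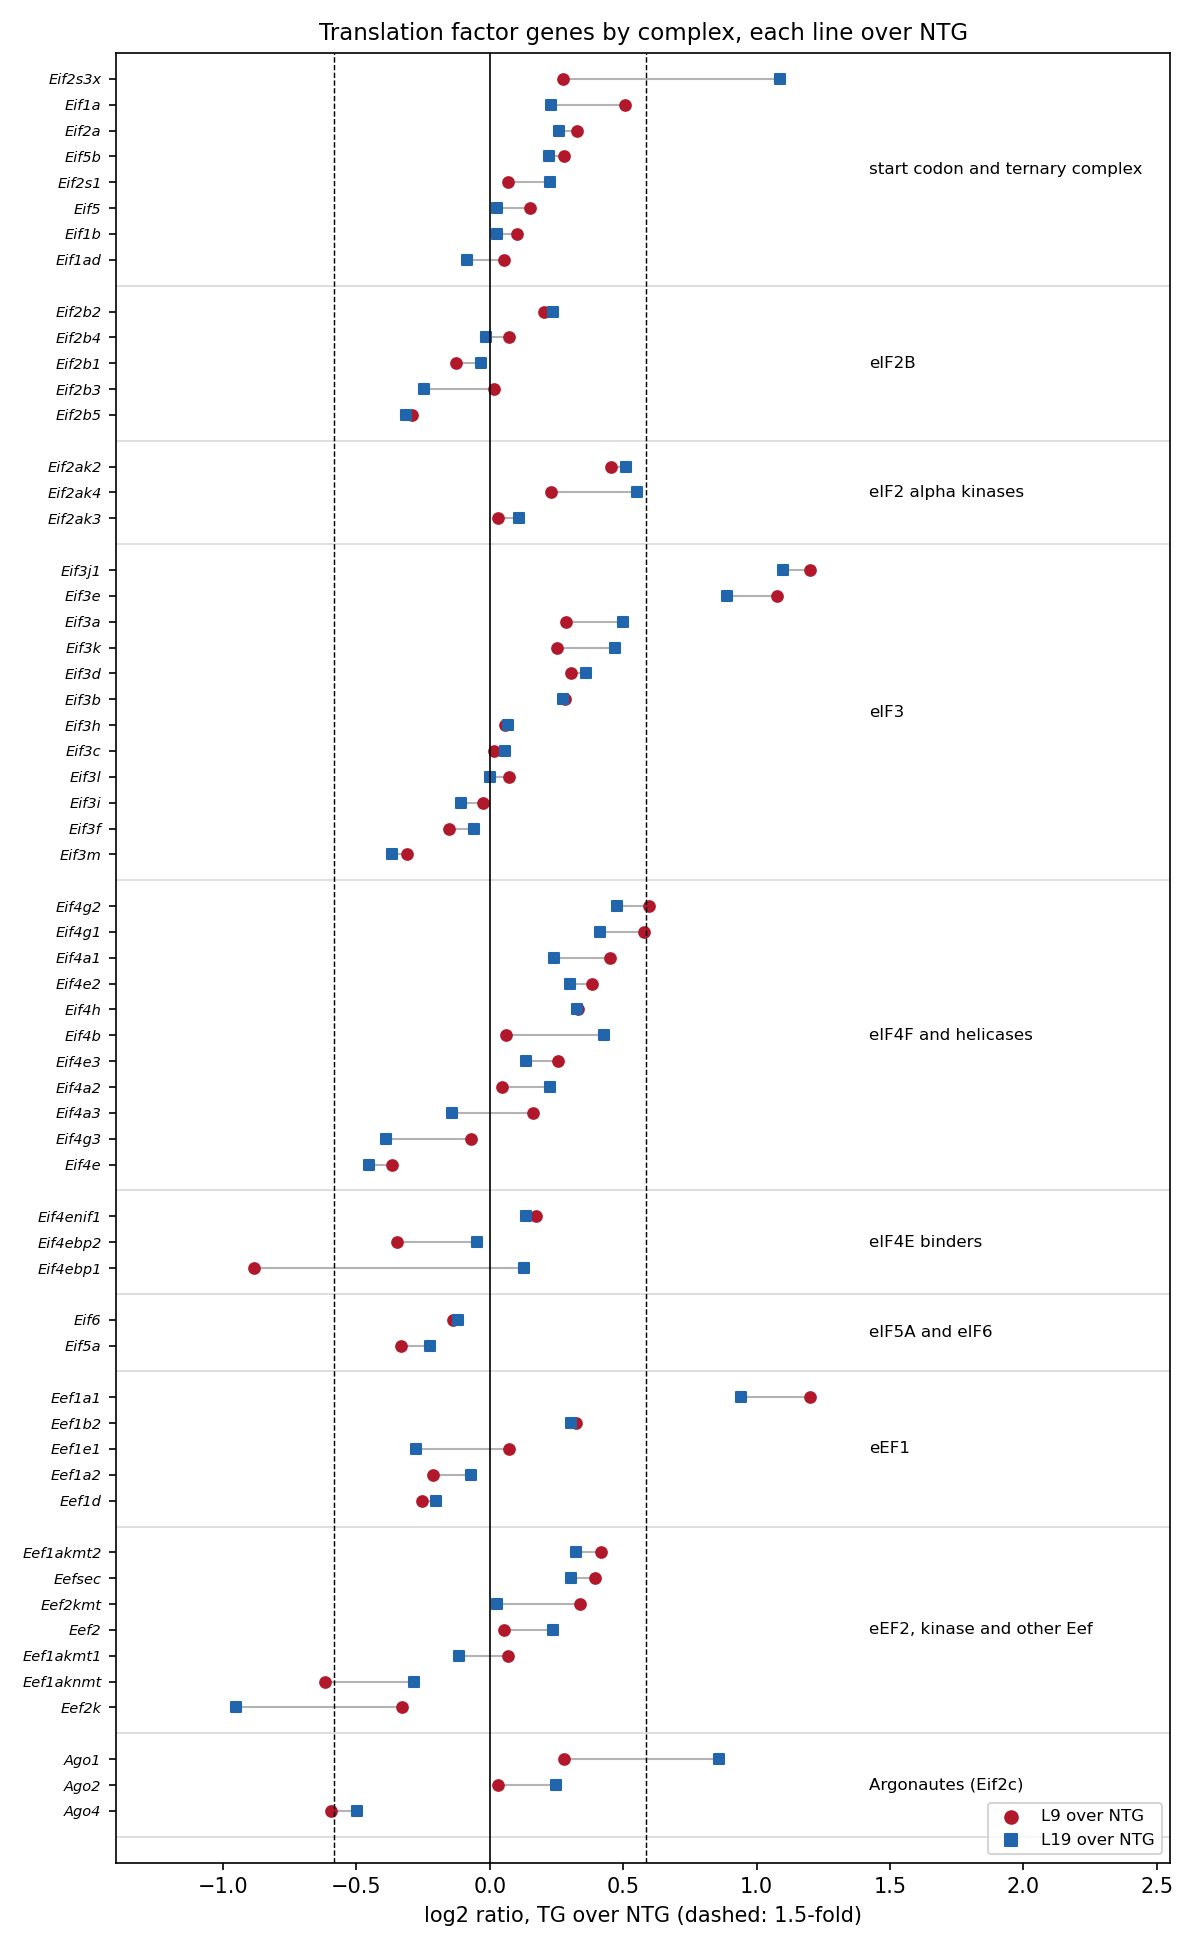
The 59 measured translation factor genes, by complex, with the log2 ratio of TG over NTG on the x axis as a red circle for L9 and a blue square for L19, and dashed lines at 1.5-fold in either direction. Only Eif3j1, Eif3e and Eef1a1 have both symbols beyond the right dashed line, and none has both beyond the left one. Under normexp correction 14 of these genes have a mean on the other side of 0.

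Among the elongation factors, Eef1a1, which encodes the ubiquitous eEF1A, was 2.1-fold higher on average, while Eef1a2, which encodes the muscle and nerve form, was close to NTG. Eef1a1 had a signal of 13001 in L9 hearts against 5656 in NTG hearts on the same array, and 12219 in L19 hearts against 6366 in NTG hearts. Both TG readings lay above both NTG readings. The log2 ratios were 1.20 in L9 and 0.94 in L19, with a mean of 1.07 ± 0.18 (SD, n = 2 lines) and an adjusted p of 0.086 by limma. The mean was 1.22 after loess within each array and 1.55 with normexp.

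Eef1a2 had a signal of 1779 in L9 hearts against 2064 in NTG hearts, and 1971 in L19 hearts against 2068 in NTG hearts. Its log2 ratios were -0.21 and -0.07, where its NTG readings differed by 0.11 between the arrays, and with normexp the mean of -0.14 turned to 0.34. The log2 ratio of Eef1a1 exceeded that of Eef1a2 by 1.41 in L9 and 1.01 in L19, and the mean difference of 1.21 ± 0.29 (SD, n = 2 lines) was 1.32 with loess and 1.22 with normexp. The pair thus shows unequal ratios under each of these corrections, whichever side of NTG Eef1a2 is placed on. The difference itself was not tested.

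The start regions of the elongation factor genes are given here because Eef1a1 and Eef1a2 encode forms of one protein from separate promoters. The sequences are from RefSeq (GRCm38.p6) and run 5′ to 3′ on the gene's strand, with 50 bases before the annotated start and the first 30 annotated bases. Capitals mark TATAA, the core of a TATA box, searched on both strands.
Eef1a1, chr9:78481695-78481774, minus strand: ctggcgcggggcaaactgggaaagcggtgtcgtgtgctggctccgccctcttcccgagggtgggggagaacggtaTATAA
Eef1a2, chr2:181156986-181157065, minus strand: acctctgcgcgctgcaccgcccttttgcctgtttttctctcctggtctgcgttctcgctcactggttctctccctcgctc
Eef1b2, chr1:63176781-63176860, plus strand: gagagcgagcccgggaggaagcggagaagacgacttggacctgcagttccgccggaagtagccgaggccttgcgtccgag
Eef2, chr10:81176581-81176660, plus strand: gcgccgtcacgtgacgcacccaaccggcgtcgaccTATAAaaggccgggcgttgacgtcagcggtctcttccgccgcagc

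The letters were found in Eef1a1, with their first base at position 26 when the first annotated base is counted as 1, and in Eef2, at position -15, that is 15 bases before the annotated start, and not in these windows of Eef1a2 and Eef1b2. Among members with an entry in the promoter table, 2 of 50 (4%) held TATAA in this window, against 2565 of 27025 genes (9.49%). A match describes the letters and not a bound factor. Eef2, which has the match, had log2 ratios of 0.05 in L9 and 0.24 in L19, well under those of Eef1a1.

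The other genes grouped with eEF1 by name lay within 1.5-fold of NTG in both lines, and the group as a whole did not move one way. Eef1b2, the exchange factor that reloads eEF1A with GTP, had a signal of 1032 in L9 hearts against 824 in NTG hearts, and 1173 in L19 hearts against 951 in NTG hearts. Its mean log2 ratio was 0.31 ± 0.02 (SD, n = 2 lines), and it was called higher by limma with the trend. Eef1d, which encodes the other exchange subunit, had log2 ratios of -0.25 and -0.20 (mean -0.02 with normexp). Eef1e1, known for its place in the multi-tRNA synthetase complex, had 0.07 in L9 and -0.27 in L19, and its mean of -0.10 was 0.27 with normexp. Over the 5 genes the median was -0.10, and 0.34 with normexp.

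Eef2, the translocation factor, had a signal of 2090.4 in L9 hearts against 2012 in NTG hearts and 2524 in L19 hearts against 2139 in NTG hearts. Its mean log2 ratio was 0.15 ± 0.13 (SD, n = 2 lines), with an adjusted p of 0.45 by limma. Eef2k encodes the kinase that inhibits eEF2 by phosphorylation. It had a signal of 26.3 in L9 hearts against 33.0 in NTG hearts and 20.2 in L19 hearts against 39.2 in NTG hearts. Both TG readings lay below both NTG readings. The log2 ratios of -0.33 and -0.95 differed between the lines by more than 1.5-fold, so the fold cutoff was passed in L19 only. The mean was -0.64 ± 0.44 (SD, n = 2 lines), and -0.23 with normexp. Eef2k was called lower by limma with the trend (adjusted p = 0.042), against 0.15 without it.

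Of the methyltransferases that modify the elongation factors, Eef1akmt2 was at 133.4% of NTG in L9 and 125.2% in L19 and was called higher by limma with the trend. Eef1akmt1 was at 104.9% and 92.3%, and Eef2kmt at 126.5% and 102.0%. Eef1aknmt, at 65.1% and 82.1%, had signals of only 4.96 and 5.20 in L9 and L19 hearts against 7.62 and 6.33 in NTG hearts. Eefsec, which brings selenocysteinyl-tRNA to the ribosome, was at 131.6% and 123.5% and was not called.

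**Figure D2:**
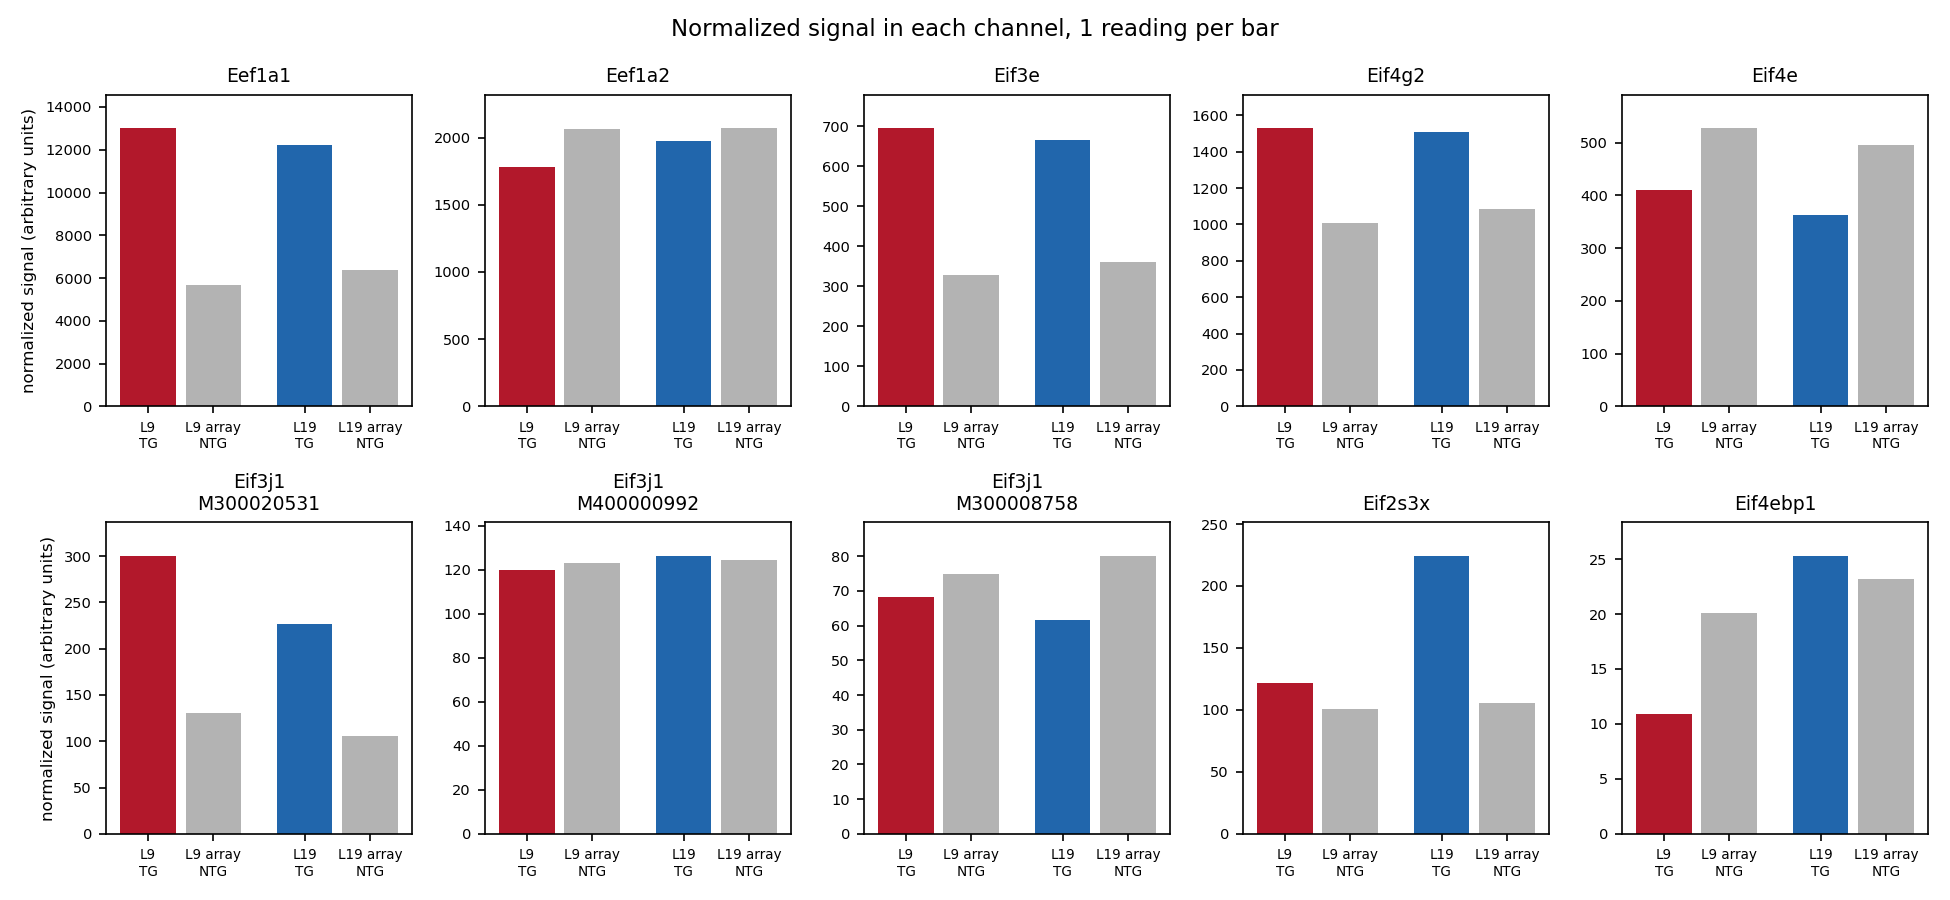
Normalized signals (arbitrary units, y axes from 0) of 10 probes, 1 reading per bar, with L9 hearts in red, L19 hearts in blue and the NTG reading of the same array in grey to the right of each. Both TG bars of Eef1a1, Eif3e, Eif4g2 and probe M300020531 of Eif3j1 stand above both grey bars. The other 2 probes of Eif3j1 show no such step, and Eif2s3x and Eif4ebp1 differ between L9 and L19.

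Of the genes for eIF3, the largest initiation factor and the one that joins the small ribosomal subunit to eIF4G, 12 were measured, 9 above NTG in both lines and 3 below. The median log2 ratio was 0.17, and 0.57 with normexp. Eif3e encodes a subunit at the edge of the complex that contacts eIF4G. It had a signal of 694 in L9 hearts against 329 in NTG hearts and 666 in L19 hearts against 359.6 in NTG hearts. Both TG readings were well above both NTG readings. The mean log2 ratio was 0.98 ± 0.13 (SD, n = 2 lines), with an adjusted p of 0.086 by limma, 0.97 with loess and 1.33 with normexp.

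Eif3j1 encodes a loosely bound subunit, and its 3 probes disagreed. Probe M300020531 has the highest mean log2 signal of the 3 over both channels and so stands for the gene. That mean includes the TG channel, so the choice depended partly on the ratio itself. By NTG signal alone M400000992, at 123 and 125, was about as bright as M300020531, at 131 and 106. M300020531 read 300.2 in L9 hearts against 131 in NTG hearts and 226 in L19 hearts against 106 in NTG hearts. Its mean log2 ratio was 1.15 ± 0.07 (SD, n = 2 lines). Its NTG readings differed between the arrays by 0.42 on the log2 scale. Probe M400000992 read 120.0 in L9 hearts against 123 in NTG hearts and 126 in L19 hearts against 125 in NTG hearts, a mean of -0.01 ± 0.04. Probe M300008758 read 68.2 in L9 hearts against 74.8 in NTG hearts and 61.6 in L19 hearts against 80.1 in NTG hearts, a mean of -0.26 ± 0.17. Eif3j1 is thus uncertain. Mouse also has a near-identical gene, Eif3j2, and which of the probes can read both was not tested.

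Under the blank correction the subunits with the highest signals were near NTG. Eif3h had log2 ratios of 0.06 and 0.07 and Eif3c of 0.02 and 0.06, and with normexp their means were 0.53 and 0.51. Eif3i had -0.03 and -0.11 and Eif3f -0.15 and -0.06, and both means turned positive with normexp, to 0.40 for Eif3i and 0.36 for Eif3f. Between these and Eif3e lay a group at modest ratios. Eif3a, the large scaffold subunit, was at 121.8% of NTG in L9 and 141.4% in L19. Eif3k was at 119.2% and 138.6%. Eif3d, which can bind the cap of some mRNAs, was at 123.5% and 128.3%. These 3 were called higher by limma with the trend, while Eif3b, at 121.5% and 120.9%, and Eif3l, at 105.2% and 100.1%, were not. Eif3m went the other way, at 80.6% in L9 and 77.6% in L19, and was called lower with the trend, but its mean log2 ratio of -0.34 turned to 0.12 with normexp.

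Among the genes grouped here with eIF4F, the scaffold genes Eif4g1 and Eif4g2 had ratios above NTG under the blank correction. The cap-binding gene Eif4e had a ratio below NTG under that correction, and none of these genes was past 1.5-fold in both lines. Eif4g2, also called DAP5, a scaffold that lacks the eIF4E site, had a signal of 1529 in L9 hearts against 1011 in NTG hearts and 1511 in L19 hearts against 1085 in NTG hearts. Its log2 ratios were 0.60 and 0.48, just past the fold cutoff in L9 and short of it in L19, with a mean of 0.54 ± 0.08 (SD, n = 2 lines). Eif4g1, the main scaffold, had a signal of 293 in L9 hearts against 197 in NTG hearts and 311 in L19 hearts against 233 in NTG hearts, a mean log2 ratio of 0.50 ± 0.11. For both genes the TG readings lay above both NTG readings. The third scaffold, Eif4g3, was at 95.3% and 76.4% of NTG, with signals of 20.5 or less in every channel.

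Eif4e had a signal of 409 in L9 hearts against 527 in NTG hearts and 362 in L19 hearts against 496 in NTG hearts. Both TG readings lay below both NTG readings. Its mean log2 ratio of -0.41 ± 0.06 (SD, n = 2 lines) was -0.43 with loess but 0.05 with normexp, so its place below NTG depended on the background correction. Its place below Eif4g1 and Eif4g2 did not, while its order with Eif4g3 reversed with normexp, where Eif4g3 had -0.14. Over all genes in the upper 50% of signal, the median was -0.01 under the blank correction and 0.26 with normexp. Eif4e lay below that median under both. The log2 ratio of Eif4g1 exceeded that of Eif4e by 0.94 in L9 and 0.87 in L19 (mean 0.90 ± 0.05), by 0.91 with loess and by 0.76 with normexp, and that of Eif4g2 exceeded it by 0.95 ± 0.02, and by 0.93 with normexp. Eif4g2 and Eif4g1 were called higher and Eif4e lower by limma with the trend (adjusted p = 0.0055, 0.012 and 0.018), against 0.10, 0.11 and 0.13 without it.

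The other cap-binding genes were not lower. Eif4e2, whose product competes with eIF4E at the cap and is linked to repression, was at 130.4% of NTG in L9 and 123.1% in L19, and Eif4e3 had log2 ratios of 0.25 and 0.14. Of the helicase genes, Eif4a1 had a signal of 1443 in L9 hearts against 1055 in NTG hearts and 1413 in L19 hearts against 1195 in NTG hearts, a mean log2 ratio of 0.35 ± 0.15 (SD, n = 2 lines). Its paralog Eif4a2 had 2879.5 in L9 hearts against 2791 in NTG hearts and 3740.0 in L19 hearts against 3198 in NTG hearts, a mean of 0.14 ± 0.13. The 2 helicase ratios differed by 0.41 in L9 and 0.02 in L19, a mean of 0.21 ± 0.28 that does not exceed its spread. Eif4a3, the helicase of the exon junction complex, lay on either side of NTG at 111.9% in L9 and 90.5% in L19. The helicase cofactors Eif4b, at 104.4% and 134.5%, and Eif4h, at 125.7% and 125.5%, were above NTG in both lines. Eif4a1 and Eif4h were called higher by limma with the trend. The median of the 11 genes of this group was 0.24, and 0.51 with normexp.

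The proteins that hold eIF4E away from eIF4G are encoded by the Eif4ebp genes, and here the lines parted. Eif4ebp1 had a signal of 10.9 in L9 hearts against 20.1 in NTG hearts, and 25.3 in L19 hearts against 23.2 in NTG hearts. It was thus at 54.3% of NTG in L9 and 109.2% in L19. Of the members measured in both lines, only Eif4ebp1 had its lines on opposite sides of NTG and more than 1.5-fold away in one of them. The lines differed by 1.01 on the log2 scale, and the NTG readings by 0.09. Eif4ebp2 was at 78.5% in L9 and 96.7% in L19. Eif4enif1, which carries eIF4E into the nucleus, was at 112.7% and 109.8%. None of the 3 was called by limma with or without the trend.

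Of the 59 members measured in both lines, 3 differed between L19 and L9 by more than 1.5-fold, where 13.4% of all genes did. Besides Eif4ebp1 and Eef2k, the third was Eif2s3x. Eif2s3x is X-linked and encodes the eIF2 subunit that binds GTP and the initiator tRNA. It had a signal of 122 in L9 hearts against 101 in NTG hearts and 224 in L19 hearts against 106 in NTG hearts. The L19 reading stood apart from the other 3. The log2 ratios were 0.27 in L9 and 1.09 in L19, and the mean of 0.68 ± 0.57 (SD, n = 2 lines) had an adjusted p of 0.17 by limma. With 1 array a line, a difference between lines could not be tested.

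**Figure D3:**
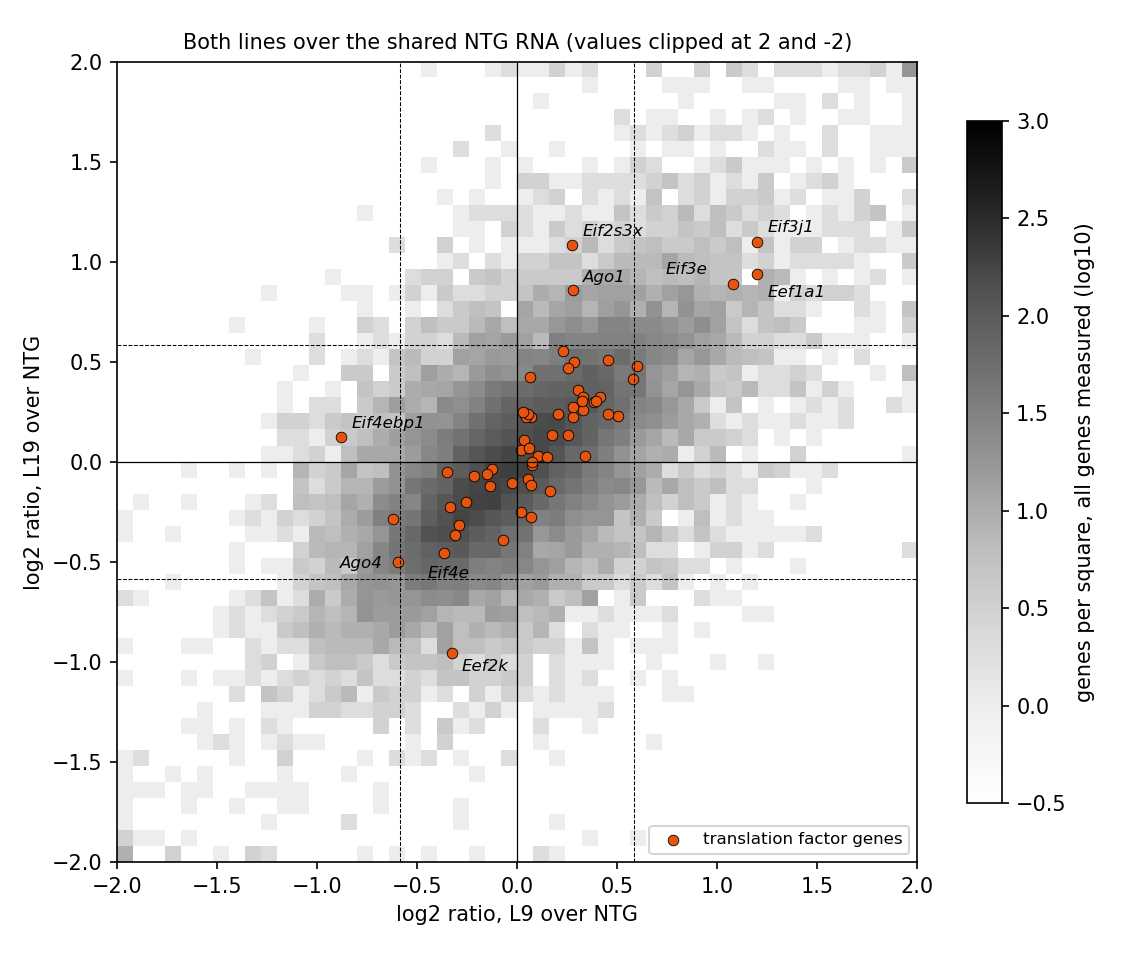
Log2 ratio of TG over NTG in L9 (x axis) and in L19 (y axis) for the 59 translation factor genes (orange) and for all 17485 genes measured (grey, darker squares holding more genes on a log10 scale), with values beyond the axes drawn at the edge and dashed lines at 1.5-fold. The members sit inside the grey cloud, with Eef1a1, Eif3e and Eif3j1 in the upper right, and Eif2s3x, Eif4ebp1 and Eef2k as the members furthest from equal ratios. Both axes use the same NTG RNA by its label, and an error shared by both NTG readings would move a point along the diagonal.

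Most of the remaining start codon and ternary complex genes that were measured in both lines had ratios a little above NTG. Eif5, the GTPase activator of eIF2, had log2 ratios of 0.15 and 0.03, and Eif1b of 0.10 and 0.03. Eif2a, an alternative carrier of initiator tRNA, had a signal of 489 in L9 hearts against 389 in NTG hearts and 495 in L19 hearts against 413 in NTG hearts. Its mean log2 ratio was 0.29 ± 0.05 (SD, n = 2 lines), and it was the only gene of this group called by limma with the trend (adjusted p = 0.049). Eif5b, which joins the ribosomal subunits, was at 121.3% and 116.8% of NTG. Eif1a, at 141.9% and 117.1%, and Eif2s1, which encodes the eIF2 subunit that the stress kinases phosphorylate, at 104.8% and 117.0%, had the largest NTG differences given above, and the mean of Eif2s1 turned from 0.15 to -0.10 with normexp. Eif1ad was at 103.7% and 94.3%, with a mean of -0.02 that was 0.001 with loess and 0.16 with normexp. Of the 8 measured genes, 7 were above NTG in both lines, with a median of 0.20, and 0.52 with normexp. Eif2d was at 143.9% of NTG in L9, on signals of 4.83 in L9 hearts against 3.35 in NTG hearts, and was above background only in the NTG channel of the L19 array, which bounds it at most 47.0% of NTG there.

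The genes for eIF2B, the exchange factor that returns eIF2 to its GTP form, stayed near NTG. Of the 5 subunits, Eif2b2 was above NTG in both lines, Eif2b1 and Eif2b5 were below in both and Eif2b3 and Eif2b4 lay on both sides. Eif2b5, the catalytic subunit, had a signal of 219 in L9 hearts against 268 in NTG hearts and 230.3 in L19 hearts against 286 in NTG hearts, a mean log2 ratio of -0.30 ± 0.02 (SD, n = 2 lines). It was called lower by limma with the trend (adjusted p = 0.049), but with normexp its mean was 0.12. Eif2b1 had log2 ratios of -0.13 and -0.03 (mean 0.32 with normexp), Eif2b3 of 0.02 and -0.25 (0.21), and Eif2b4 of 0.07 and -0.01 (0.42). The median of the 5 was -0.08, and 0.32 with normexp.

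All 3 measured kinases that phosphorylate eIF2 under stress were above NTG in both lines, none past the fold cutoff. Eif2ak2 (PKR, which senses double-stranded RNA) had a signal of 15.8 in L9 hearts against 11.5 in NTG hearts and 16.7 in L19 hearts against 11.7 in NTG hearts, a mean log2 ratio of 0.48 ± 0.04 (SD, n = 2 lines) that was 0.04 with normexp. Eif2ak4 (GCN2, which senses uncharged tRNA) was at 117.3% in L9 and 146.8% in L19. Eif2ak3 (PERK, of the endoplasmic reticulum) was at 102.2% and 107.8%. None was called by limma with or without the trend.

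Eif5a and Eif6 were below NTG in both lines under the blank correction. Eif5a, whose product carries hypusine and helps ribosomes past stalls, had a signal of 1501 in L9 hearts against 1892 in NTG hearts and 1769 in L19 hearts against 2067 in NTG hearts. Its mean log2 ratio of -0.28 ± 0.08 (SD, n = 2 lines) was called lower by limma with the trend, but was 0.20 with normexp. Eif6, which keeps the large ribosomal subunit apart until it is needed, was at 90.9% and 92.1% of NTG, and its mean of -0.13 was 0.26 with normexp. Eif5a2 was above background in the NTG channels only, with no bound on its ratio.

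**Figure D4:**
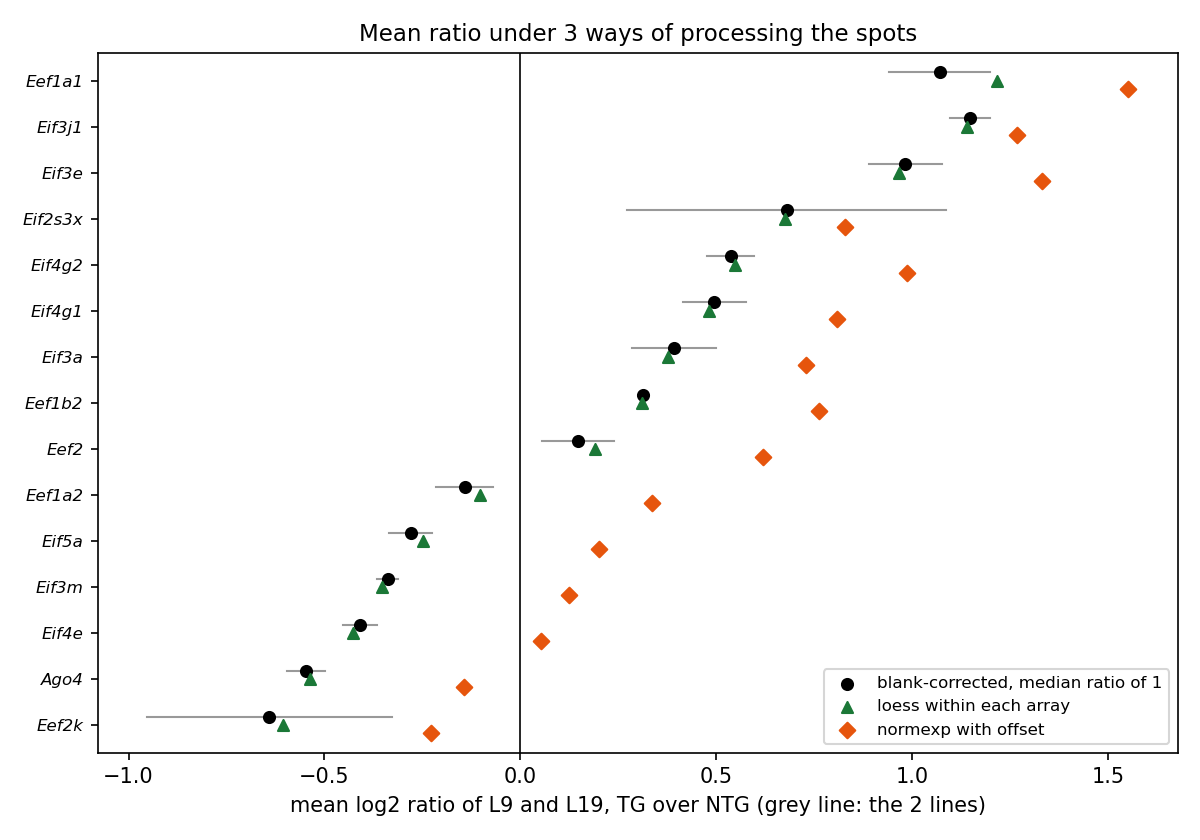
Mean log2 ratio of TG over NTG, over both lines, for 15 translation factor genes under 3 ways of processing the spots, with the blank correction as black circles, loess within each array as green triangles and normexp as orange diamonds. Grey lines join the values of L9 and L19 under the blank correction. Loess put Eef1a1 at 1.22, its largest shift among these genes, whereas normexp moved each gene to the right, which puts Eef1a2, Eif5a, Eif3m and Eif4e on the other side of 0.

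The rule also takes in the Argonaute genes, whose older symbols begin with Eif2c. Argonaute proteins hold miRNAs and silence their target mRNAs, and are not translation factors of the kind above. Ago2, the one with slicing activity, was at 102.2% of NTG in L9 and 118.9% in L19, a mean log2 ratio of 0.14 ± 0.15 (SD, n = 2 lines). Ago1 had 11.7 in L9 hearts against 9.68 in NTG hearts and 18.8 in L19 hearts against 10.4 in NTG hearts, at 121.1% and 181.3% of NTG, with a mean of 0.57 that was 0.04 with normexp. Ago4 went the other way, with 51.8 in L9 hearts against 78.3 in NTG hearts and 58.9 in L19 hearts against 83.3 in NTG hearts. Its mean was -0.55 ± 0.07, and -0.14 with normexp, and it was called lower by limma with the trend (adjusted p = 0.012). Ago3 was above background in the NTG channels only, which bounds it at most 83.5% of NTG in L19 and sets no bound in L9. Without these genes the members' median stayed at 0.14.

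Genes that act on the factors were described from lists of their own. Of 12 measured mTORC1 genes of 13 listed, 4 were above NTG in both lines and 6 below. Tsc2, which restrains mTORC1, was past the fold cutoff in both lines with log2 ratios of -0.72 and -0.68, but its mean was only -0.22 with normexp, short of that cutoff. Rps6kb1, the S6 kinase, had 0.67 and 0.49, and the stress-induced inhibitor Ddit4 had -0.17 in L9 and 1.10 in L19 (mean 0.46, and 0.73 with normexp). With the trend, limma called 2 of this list higher, Rheb and Rps6kb1 (10.4% of all genes), and 1 lower, Tsc2 (9.56%).

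Of 11 regulators of initiation, all measured, 5 were above NTG in both lines and 3 below. Pabpc1, the poly(A)-binding protein that eIF4G contacts, had log2 ratios of 0.66 and 0.63, over 1.5-fold in both lines, with a mean of 1.07 with normexp. Mknk2, a kinase of eIF4E, had -0.78 and -0.49, a mean of -0.64 that was -0.18 with normexp. Paip2, an inhibitor of poly(A)-binding protein, had 0.41 and 0.30 (mean 0.35, and 0.81 with normexp). These 3 and Pabpc4 were the calls of limma with the trend, 3 higher (10.4% of all genes) and 1 lower (9.56%).

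Ppp1r15a, which directs the phosphatase that reactivates eIF2, had log2 ratios of 0.51 and 0.87, and was called higher by limma with the trend. Of the 4 genes of that phosphatase list, 2 were above NTG in both lines. Among the enzymes that make hypusine on eIF5A and diphthamide on eEF2, 4 of 7 measured were above NTG in both lines and 3 below. Dph5 had log2 ratios of 0.999 and 0.58, Dph6 of 0.79 and 0.56 and Dohh of 0.37 and 0.45, and with normexp their means were 0.81, 0.22 and 0.72. The trend fit called these 3 higher (10.4% of all genes) and Dhps lower (9.56%), though the mean of Dhps, -0.30, turned to 0.18 with normexp. Of 3 measured termination and recycling genes 1 was above and 1 below in both lines. Of 9 measured mitochondrial translation factors 2 were above and 3 below, and neither list held a call. Without the trend, limma called no gene of these 6 lists, the lowest adjusted p being 0.086.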

How the data were processed

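Heart RNA of L9 and L19 mice (TG, Cy3) was hybridised with NTG RNA (Cy5) on 2 arrays, and each line counted as 1 replicate of the transgene. The authors deposited spot intensity values for both channels, made with the 3D-Gene Extraction software, whose version was not stated, and a table of log2 ratios scaled to a median ratio of 1. Scale and direction of the deposited log2 ratios were settled by recomputing them from the intensities, and 18440 of 18441 values in L9 and 18823 of 18824 in L19 came out within 0.001.

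In each channel the mean of 2736 blank spots, trimmed by 5% at each end, was subtracted. Probes above that mean plus 2 SD in both channels counted as measured, and the median ratio was set to 1. That mean was 19.1 in Cy5 and 85.2 in Cy3 for L9, against 19.1 and 72.6 for L19. The number of arrays limits the precision. A gene was represented by its brightest probe, by mean log2 signal over the TG and NTG channels of both arrays. Platform symbols were updated through the RefSeq gene table of GRCm38.p6. The limma package (3.58.1, R 4.3.3) fitted the log2 ratios with lmFit and eBayes, and Benjamini-Hochberg adjustment ran over 17485 genes or unnamed probes. The spread among NTG mice does not enter this test, and nothing says the RNAs came from single mice, so p-values measure only the spread between these samples. The fold cutoff of 1.5 was applied without a test.

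Genes named with values were those past 1.5-fold in both lines, those with lines on opposite sides of NTG and over 1.5-fold in one, up to 4 more of each complex by signal, and up to 3 of each pathway list. Other members named, such as Eif2s3x, Eif4g1, Eif3m and Eef2k, were chosen after their values were seen, and so were Rheb, Pabpc4 and Dhps. The members and lists were chosen with earlier results of these data known. Eif1, Eif2s2, Eif3g and Eef1g have no probe named here and were not analysed here. Alternatives were loess, normexp with an offset of 50, the deposited table, the upper 50% of signal, each probe apart, a trend with robust estimation, a cutoff of 2, bounds for undetected channels and each line left out. Leaving out the Argonautes and the other Eif3j1 probes were chosen after seeing the data. On simulated data with 200 of 17485 genes changed in each of 5 runs, limma called 0% of genes changed 1.5-fold, 0.4% changed 2-fold, 74.4% changed 4-fold and 0.0266% of unchanged genes. The simulated ratios were independent, so a control RNA shared by both arrays and a larger share of changed genes were not simulated. Python 3.11.15, numpy 2.4.6, pandas 2.3.3 and matplotlib 3.10.9 were used.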

Additional observations from a re-analysis of the deposited data

How the results depend on the processing

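The counts past the fold cutoff (3 members higher, 0 lower) were the same with loess, the deposited table, the upper 50% of signal, each probe apart and bounds for undetected channels. With normexp 13 members were higher (5.51% of all genes), and with a cutoff of 2 only 1 was (1.25%), Eif3j1 by 1 of its 3 probes. With 1 line left out, the counts were 4 to 5 higher and 1 to 3 lower, without L19 being the 4 and 3 and without L9 the 5 and 1. The calls of limma, 0 in each direction, stayed at 0 with loess, the deposited table and each probe apart. They were 40 higher and 1 lower with normexp (30.4% and 13.1% of all genes), 10 and 3 among the upper 50% of signal (14.3% and 14.7%), and 13 and 6 with the trend and robust estimation. The members' median of 0.14 was 0.17 with loess, 0.40 with normexp and 0.073 to 0.13 with 1 line left out. Normexp moved 48 of the 59 members by more than the SD of their lines, 14 of them to the other side of NTG, and loess moved 2 to the other side. The shift with normexp was not particular to the members. The median over all genes in the upper 50% of signal was -0.01 under the blank correction and 0.26 with normexp. The mean of Eif3j1, 1.15 by probe M300020531, turned to -0.0091 by M400000992 and -0.26 by M300008758. The cause of these shifts was not tested. limma without a line could not be fitted, as no residual degrees of freedom remain. Each ratio set TG against NTG on the same array. No further pairing was possible, because the lines share 1 NTG RNA by its label and the groups share fewer than 2 replicate numbers. Low signals limit Eif2d, Eif2s1, Eif5a2, Eef1aknmt and Ago3. They also limit Ago1, Eif2ak2, Eif4g3 and Eif4ebp1, each at 25.3 or less in every channel. Without a dye swap a gene's dye effect cannot be told apart from its ratio.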
